A study of Rattus norvegicus with 6 samples.

Results

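The genes of the transforming growth factor beta (TGF-beta), bone morphogenetic protein (BMP) and activin pathways were examined in cultured rat cortical neurons given the complement protein C1q. The list held 38 genes, namely ligands, receptors, secreted antagonists, Smad proteins and Id targets. They were chosen by name, with earlier results of these data known. Each was represented by the probe set whose platform annotation named that gene alone, which gave 36 genes, each with exactly 1 such probe set, of 14506 genes named on the array. Tgfbr2, the type II TGF-beta receptor gene, and Skil, a gene of a Smad corepressor, had no such probe set and are not analysed here.

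The study compared C1q-treated neurons, exposed to 10 nM C1q for 3 h, with untreated neurons. Both groups were cortical neurons of Sprague-Dawley rat embryos of day 18, kept for 3 days in NB-N2 medium before the comparison. Total RNA was measured on 6 one-colour Affymetrix arrays, 3 per group, and the labels do not say whether the arrays of a group came from separate cultures. The p-values are therefore set against a spread between arrays that may be technical only.

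TGF-beta family ligands are secreted dimers that assemble a pair of type I and type II receptor kinases on the cell surface. The activated type I receptor phosphorylates receptor-regulated Smads, which join Smad4 and regulate genes in the nucleus, while noggin, chordin and follistatin bind ligands outside the cell. In the developing cortex these signals are known for their part in the choice between neuronal and glial fate, in axon formation and in dendrite growth, and genes such as Id1, Id3, Smad6 and Smad7 are induced by the pathway itself and serve as its readouts.

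After 3 h of C1q none of the tested genes passed the test in either direction, the readouts Id3 and Smad7 among them, while the readouts Id1 and Smad6 were too dim to be tested. Of the 36 genes, 26 lay above the filter on dim probe sets, a mean intensity of 94.4, and were tested with limma across 17529 probe sets. The test called 0 of these 26 at an adjusted p under 0.05, beside a background of 0% of all tested probe sets. At an unadjusted p under 0.05 the count was again 0 of 26, where the background was 2.49% (437 of 17529), and with array weights it was 5 of 26, beside 20.6% of tested probe sets. Fold changes of the tested genes, C1q over untreated, ran from 0.930 for Inha to 1.11 for Smad3. Their median log2 fold change was 0.0025, beside -0.019 over all tested probe sets.

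The 95% intervals were narrow for most of these genes, though they rest on a spread between arrays that may be technical only. Limits of 1.2-fold in either direction held the 95% interval of 21 of 26 tested genes, limits of 1.25-fold held 23 and limits of 1.5-fold held all 26. Over all 17529 tested probe sets the same limits held 12235, 14660 and 17327 intervals. The intervals that the 1.25-fold limits did not hold belonged to Tgfb3, Inha and Smad3, with low intensities between 98.9 and 179. Their standard errors on the log2 scale were 0.116, 0.110 and 0.0976. Id3 and Chrd, which those limits held, had standard errors of 0.111 and 0.104. A fold change of a dim gene understates the change of its mRNA, because it was taken on log2(intensity + 16) and an unknown share of the signal is background.

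**Figure D1:**
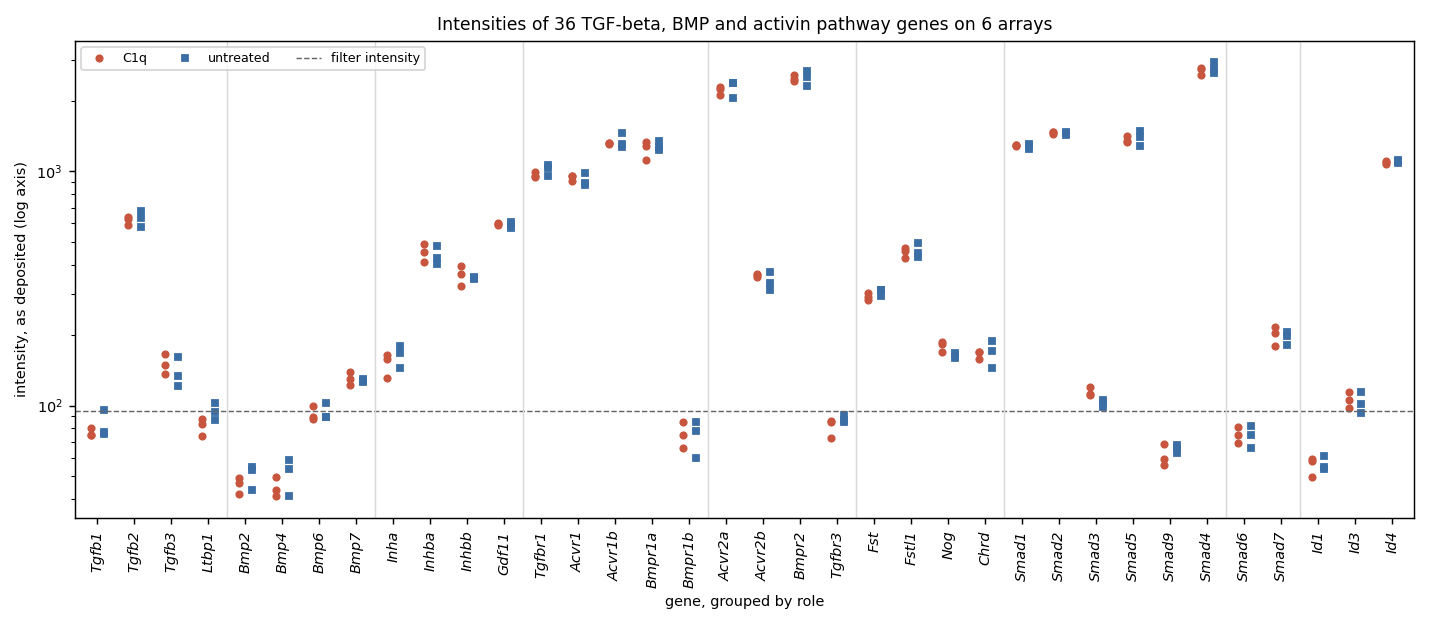
Deposited intensities (log axis) of the 36 genes, grouped by role along the horizontal axis, with circles for the 3 C1q arrays, squares for the 3 untreated arrays and a dashed line at the filter intensity of 94.4. Circles and squares of a gene lie at nearly the same height throughout, and 10 genes have mean values under the line.

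Ligand genes of the TGF-beta branch did not differ beyond the spread between arrays. Tgfb1, which encodes the TGF-beta form best known from immune and blood cells, read 80.4, 74.8 and 74.9 on C1q arrays 1 to 3, against 77.0, 95.9 and 75.3 on untreated arrays 1 to 3. Untreated array 2 stood above the other 5 arrays, all of which were below the filter, so the gene was not tested. Tgfb2, the ligand gene with roles in neural development, read 624, 638 and 593 on C1q arrays, against 678, 578 and 635 on untreated arrays. All C1q values of Tgfb2 lay inside the untreated range, and the fold change was 0.983 (95% interval 0.887 to 1.09). Tgfb3 averaged 150 ± 14.8 in C1q-treated and 139 ± 20.6 in untreated neurons (SD, n = 3 each), a fold change of 1.07 (95% interval 0.900 to 1.28). Ltbp1, whose product holds latent TGF-beta in the matrix, read 83.2, 87.4 and 74.1 on C1q arrays, against 94.2, 87.1 and 103 on untreated arrays. The groups of Ltbp1 touched at a single pair of values, C1q array 2 and untreated array 2, and its mean lay below the filter. In a fit without the filter, where all 36 genes were tested, Ltbp1 had the smallest unadjusted p among them, 0.121 in limma, with an adjusted p of 1.00.

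BMP ligand genes were dim in these cultures. Bmp2, Bmp4 and Bmp6 lay below the filter, and Bmp7 was the 1 BMP ligand gene of the 4 that was tested. Bmp2 read 49.1, 46.9 and 42.0 on C1q arrays, against 52.9, 43.5 and 54.9 on untreated arrays, so the groups overlapped. Bmp4, a ligand gene whose product patterns the dorsal forebrain, read 43.5, 49.6 and 41.1 on C1q arrays, against 41.0, 58.5 and 53.4 on untreated arrays. Untreated arrays 2 and 3 were above all C1q arrays for Bmp4, while untreated array 1 was the lowest of the 6. Bmp6 averaged 92.3 ± 6.74 in C1q-treated and 93.9 ± 7.86 in untreated neurons (SD, n = 3 each). For Bmp7 the values were 130, 140 and 123 on C1q arrays, against 127, 129 and 127 on untreated arrays. The C1q arrays of Bmp7 spread to both sides of the narrow untreated range, with a fold change of 1.02 (95% interval 0.886 to 1.18).

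All 4 activin, inhibin and GDF ligand genes were tested and none passed. Inhba, which encodes the subunit of activin A and is known as an activity-induced neuronal gene, read 491, 451 and 409 on C1q arrays, against 426, 401 and 482 on untreated arrays. These ranges covered each other almost fully, at a fold change of 1.03 (95% interval 0.906 to 1.17). Inhbb, the subunit gene of activin B, averaged 360 ± 35.3 in C1q-treated and 351 ± 3.40 in untreated neurons (SD, n = 3 each). Inha, the inhibin alpha subunit gene, whose product turns activin subunits into an antagonist, read 132, 164 and 158 on C1q arrays, against 179, 145 and 167 on untreated arrays. It had the lowest fold change of the 26, 0.930 (95% interval 0.788 to 1.10), and C1q array 1 was the lowest of its 6 values. Gdf11, a ligand gene that limits neuron production in neural tissue of mice, averaged 597 ± 4.93 in C1q-treated and 591 ± 16.2 in untreated neurons (SD, n = 3 each), a fold change of 1.01 (95% interval 0.929 to 1.10).

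Receptor genes of the TGF-beta, BMP and activin branches lay above the filter, other than Bmpr1b and the co-receptor gene Tgfbr3, and none passed. Tgfbr1, the type I TGF-beta receptor gene, read 952, 999 and 947 on C1q arrays, against 1039, 953 and 1063 on untreated arrays. Untreated array 2 lay among the C1q arrays for Tgfbr1 and the other two untreated arrays lay above all of them. Its fold change was 0.950 (95% interval 0.872 to 1.03), and limma's unadjusted p was 0.212 (adjusted p = 0.9999). Acvr1, a type I receptor gene of the BMP branch, averaged 940 ± 29.3 in C1q-treated and 918 ± 61.9 in untreated neurons (SD, n = 3 each). Acvr1b, the type I activin receptor gene, averaged 1315 ± 4.66 in C1q-treated and 1347 ± 96.6 in untreated neurons (SD, n = 3 each). For both genes the C1q arrays lay inside the untreated range. Bmpr1a, the type I BMP receptor gene needed for dorsal midline patterning in mice, read 1285, 1334 and 1117 on C1q arrays, against 1267, 1235 and 1354 on untreated arrays. Its lowest value was on C1q array 3, and the fold change was 0.968 (95% interval 0.874 to 1.07). Bmpr1b, a second type I BMP receptor gene, averaged 75.4 ± 9.44 in C1q-treated and 74.2 ± 12.9 in untreated neurons (SD, n = 3 each) and was not tested.

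Among the type II receptor genes, Acvr2a read 2252, 2291 and 2114 on C1q arrays, against 2397, 2065 and 2397 on untreated arrays. Untreated array 2 was the lowest of the 6 and the other two untreated arrays were the highest, so the C1q arrays lay inside the untreated range. The fold change of Acvr2a was 0.973 (95% interval 0.886 to 1.07). Acvr2b, the second activin type II receptor gene, read 365, 361 and 355 on C1q arrays, against 371, 313 and 335 on untreated arrays. The C1q arrays of Acvr2b lay between untreated array 1 and the other two untreated arrays, and the fold change was 1.06 (95% interval 0.945 to 1.19). Bmpr2, the type II BMP receptor gene, averaged 2499 ± 73.9 in C1q-treated and 2515 ± 189 in untreated neurons (SD, n = 3 each), a fold change of 0.995 (95% interval 0.914 to 1.08). Tgfbr3, which encodes the betaglycan co-receptor that presents ligands to the signalling receptors, averaged 81.2 ± 7.49 in C1q-treated and 88.1 ± 3.16 in untreated neurons (SD, n = 3 each).

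**Figure D2:**
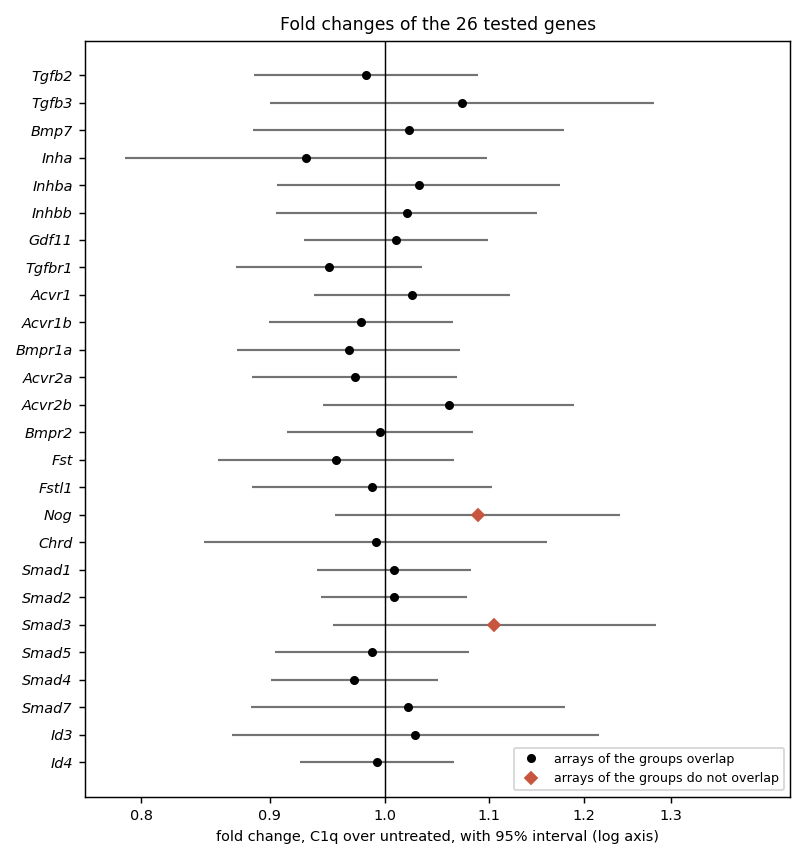
Fold change of C1q over untreated neurons (log axis) for the 26 tested genes, with bars for the 95% interval of the limma fit and diamonds for genes whose C1q and untreated arrays do not overlap. All 26 intervals include 1, and the diamonds belong to Nog and Smad3.

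The 4 antagonist genes were all tested and none passed. Fst, which encodes the activin-binding protein follistatin, read 304, 283 and 290 on C1q arrays, against 313, 294 and 312 on untreated arrays. The groups of Fst overlapped only through untreated array 2 and C1q array 1, and the fold change was 0.956 (95% interval 0.858 to 1.07). Nog, which encodes the BMP antagonist noggin, read 169, 186 and 184 on C1q arrays, against 164, 168 and 159 on untreated arrays. The lowest C1q value of Nog, 168.8, was just above the highest untreated value, 168.3, so the groups were separate by a small margin. The fold change of Nog was 1.09 (95% interval 0.956 to 1.24), and limma's unadjusted p was 0.180 (adjusted p = 0.9999). Chrd, the chordin gene, averaged 166 ± 6.62 in C1q-treated and 168 ± 22.2 in untreated neurons (SD, n = 3 each), and Fstl1, a gene of a secreted follistatin-like glycoprotein, averaged 452 ± 24.4 in C1q-treated and 458 ± 33.5 in untreated neurons (SD, n = 3 each). For Chrd the lowest and the highest of the 6 values were both untreated, 144 on array 1 and 189 on array 2.

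None of the 5 tested receptor-regulated and common Smad genes passed. Smad1, a BMP-branch Smad, read 1302, 1301 and 1288 on C1q arrays, against 1315, 1246 and 1299 on untreated arrays. Smad2, an activin and TGF-beta branch Smad, read 1470, 1479 and 1451 on C1q arrays, against 1467, 1426 and 1472 on untreated arrays. The groups of both genes overlapped. Both had a fold change of 1.01, with 95% intervals of 0.940 to 1.08 for Smad1 and 0.943 to 1.08 for Smad2. Smad4, the partner common to all branches, averaged 2690 ± 104 in C1q-treated and 2769 ± 142 in untreated neurons (SD, n = 3 each), a fold change of 0.972 (95% interval 0.901 to 1.05). Smad5, a BMP-branch Smad, averaged 1371 ± 42.9 in C1q-treated and 1390 ± 103 in untreated neurons (SD, n = 3 each). Smad9, the remaining BMP-branch Smad, lay below the filter, at 61.0 ± 6.72 in C1q-treated and 65.6 ± 2.56 in untreated neurons (SD, n = 3 each).

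Smad3, the second Smad of the TGF-beta and activin branch, was the other gene whose groups did not overlap. It read 111, 113 and 121 on C1q arrays, against 105, 98.9 and 103 on untreated arrays. Every C1q value was above every untreated value, in a gene close to the filter intensity. The log2 fold change of Smad3 was 0.14 with a standard error of 0.098, and the fold change was 1.11 (95% interval 0.953 to 1.28). Limma's unadjusted p was 0.166 (adjusted p = 0.9999), the smallest among the 26. With a common variance in place of the intensity trend the unadjusted p was 0.0327 and the adjusted p of Smad3 stayed above 0.05. Counting both genes, the 2 groups of arrays were separate in 2 of 26 tested genes, both with C1q above, beside 5.72% of all tested probe sets in either direction and 1.30% with C1q above. Over the 16 alternatives tried, log2 fold changes lay between 0.10 and 0.17 for Smad3 and between 0.098 and 0.16 for Nog. Since the groups of both genes were separate, only a rescaling of the arrays could have changed their sign. Quantile normalization and median centring gave 0.17 and 0.17 for Smad3, and 0.14 and 0.15 for Nog. With quantile normalization Acvr2b, Smad1 and Smad2 were separate as well. This made 5 of 26 tested genes, all with C1q above, beside 7.52% of tested probe sets in either direction. The share with C1q above was not computed for that scaling.

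Among the pathway's target genes, Id1, Id3 and Id4 did not differ beyond the spread between arrays. Pmepa1, a further TGF-beta-induced gene, is given further below. Id1, which encodes an inhibitor of basic helix-loop-helix transcription factors and is a direct BMP target, read 59.0, 49.7 and 58.1 on C1q arrays, against 54.5, 53.4 and 60.7 on untreated arrays. Its ranges overlapped in part, since C1q array 2 lay below all untreated arrays and untreated array 3 above all C1q arrays, at a level below the filter. Id3, a second BMP target of the same kind, read 106, 97.6 and 115 on C1q arrays, against 114, 102 and 92.8 on untreated arrays, a fold change of 1.03 (95% interval 0.869 to 1.22). Id4, the family member known from neural progenitors, read 1081, 1110 and 1100 on C1q arrays, against 1104, 1092 and 1119 on untreated arrays. The Id4 values agreed within each group to an SD of 14.8 in C1q-treated and 13.4 in untreated neurons (n = 3 each). Its fold change of 0.993 had the interval 0.925 to 1.07. This was one of 5 intervals of tested genes within 1.1-fold, beside 2397 of 17529 tested probe sets.

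Inhibitory Smads, which the pathway induces to shut its own receptors, did not differ beyond that spread either. Smad7, the inhibitor of all branches, read 204, 218 and 179 on C1q arrays, against 198, 182 and 207 on untreated arrays. The C1q arrays of Smad7 held both the highest and the lowest of the 6 values, and the fold change was 1.02 (95% interval 0.885 to 1.18). Smad6, which mainly blocks the BMP branch, read 81.3, 75.2 and 69.2 on C1q arrays, against 74.7, 81.9 and 66.0 on untreated arrays. It lay below the filter with fully overlapping groups.

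**Figure D3:**
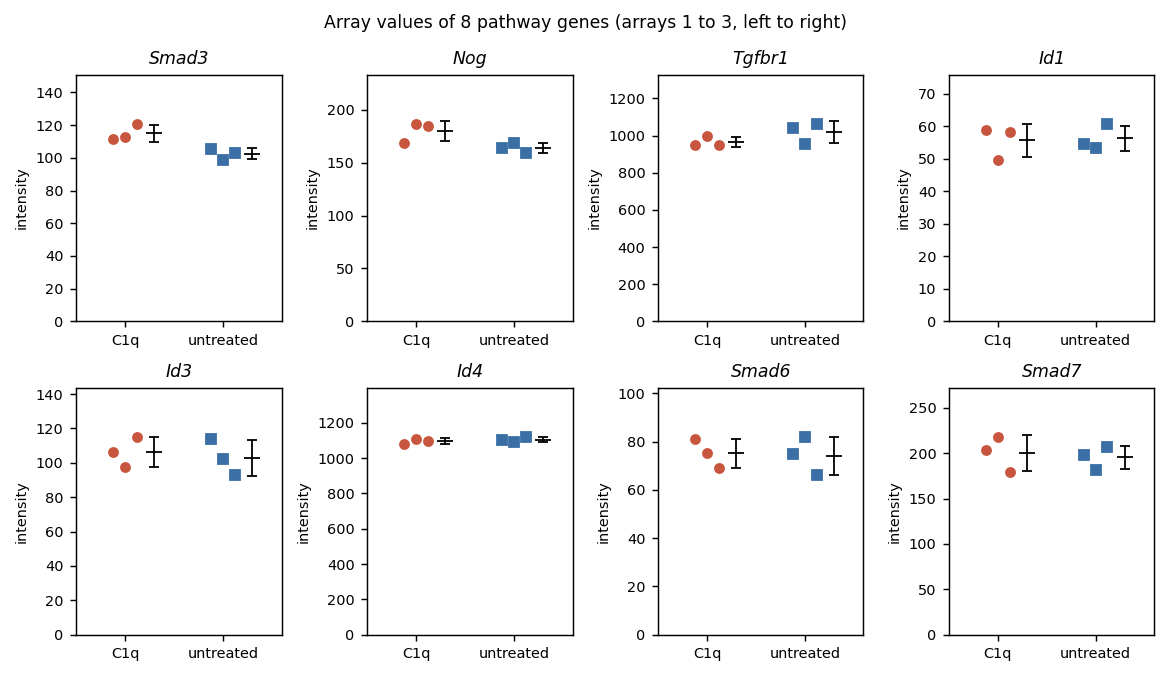
Intensities on the 3 C1q arrays (circles) and 3 untreated arrays (squares) for Smad3, Nog, Tgfbr1, Id1, Id3, Id4, Smad6 and Smad7, with the mean and SD of each group beside its points and each vertical axis starting at 0. The groups are separate for Smad3 and Nog, by small steps, and overlap for the other 6 genes.

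Promoter sequences are shown for the readout Id1, for Smad7 as the feedback gene, and for Nog and Smad3 as the genes whose groups did not overlap. RefSeq promoters of the GRCr8 build were matched for 30 of the 36 genes, and the 250 bases before the annotated start were searched on both strands for 4 motifs described for Smad binding. The 120 bases before the start are printed 5′ to 3′ on the gene's strand, with GGCGCC and GCCGNCGC in capitals, which overlap each other in Nog and Smad7. The shorter Smad box GTCT is left in lower case.
Id1: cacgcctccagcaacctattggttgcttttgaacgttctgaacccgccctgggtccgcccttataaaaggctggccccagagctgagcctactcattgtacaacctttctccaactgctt
Smad7: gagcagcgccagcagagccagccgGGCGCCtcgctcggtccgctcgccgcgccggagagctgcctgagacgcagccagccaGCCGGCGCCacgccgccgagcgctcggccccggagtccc
Nog: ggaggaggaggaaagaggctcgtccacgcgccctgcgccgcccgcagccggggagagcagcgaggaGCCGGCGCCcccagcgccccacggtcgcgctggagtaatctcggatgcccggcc
Smad3: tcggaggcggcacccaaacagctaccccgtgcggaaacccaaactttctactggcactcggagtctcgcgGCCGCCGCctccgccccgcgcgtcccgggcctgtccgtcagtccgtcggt

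The Id1 stretch held neither capital motif, while Smad7 and Nog held both and Smad3 held GCCGNCGC. Over the 250 bases, GGCGCC was present in 9 of 30 promoters of these genes, beside 8.69% of 33469 promoters of the same length, and GCCGNCGC in 10 of 30, beside 6.77%. GTCT was present in 21 of 30, beside 84.0%, and the palindrome GTCTAGAC in 0 of 30, beside 0.173%. The promoters of these genes had a median GC content of 63.8%, against 51.2% over all promoters, and GGCGCC and GCCGNCGC are made up almost wholly of G and C. A match of letters describes the sequence only. These stretches lie on chromosome 3 (chr3:161671314-161671563 for the 250 bases of Id1), 18 (chr18:71263258-71263507 for Smad7), 10 (chr10:74627502-74627751 for Nog) and 8 (chr8:73132325-73132574 for Smad3) of GRCr8.

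The balance of signs depended on how arrays were scaled. Means were higher after C1q for 13 and lower for 13 of the 26 tested genes as deposited, 17 and 9 with quantile normalization, and 19 and 7 with median centring. Over all tested probe sets the share with a higher mean was 36.7%, 50.7% and 56.7% under the same scalings. Over all 36 genes the higher and lower means numbered 15 and 21 as deposited. Among the antagonists 1 of 4 was higher as deposited and 3 of 4 with either rescaling, and among the Id genes 1 of 3 and then 3 of 3. Type I receptor genes held at 2 higher and 3 lower under each scaling. The activin, inhibin and GDF ligands held at 3 higher and 1 lower.

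The arrays of one group differed from each other in a way that these genes shared. Untreated array 2 was the lowest untreated array for 19 of the 26 tested genes, or 73.1%, beside 52.9% of all tested probe sets. All 36 genes included, that array was the lowest for 7 of 9 receptor genes and 5 of 6 receptor-regulated and common Smads. It was the highest untreated array for Tgfb1, Bmp4, Bmp7, Gdf11, Nog, Chrd, Smad9 and Smad6. C1q array 3 was the lowest C1q array for 15 of the 26, or 57.7%, beside 47.8% of tested probe sets. Spread between arrays was larger in the untreated group for 17 of 26 genes, beside 70.3% of tested probe sets, with a median coefficient of variation of 3.94% among C1q and 6.65% among untreated arrays, beside 4.54% among C1q and 6.51% among untreated arrays over all tested probe sets. Without untreated array 2 the log2 fold changes were -0.12 for Tgfbr1 and -0.11 for Acvr2a. Their unadjusted limma p-values were then 0.0404 and 0.0385, beside 8.69% of tested probe sets under 0.05, and the smallest adjusted p of a tested gene was 0.533.

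**Figure D4:**
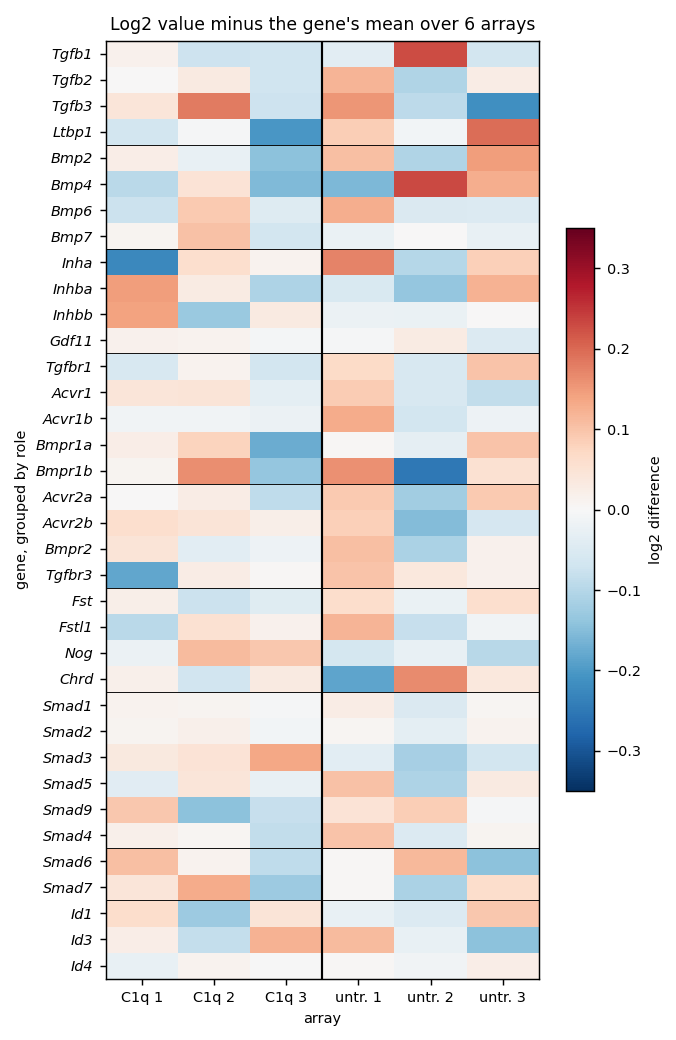
Difference of each log2 value from the gene's mean over all 6 arrays, in colour, for the 36 genes (rows, grouped by role) on C1q arrays 1 to 3 and untreated arrays 1 to 3 (columns). Receptor and Smad rows are mostly below their mean on untreated array 2, Nog and Smad3 are above theirs on C1q arrays 2 and 3, and Smad1, Smad2 and Id4 are nearly even.

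A wider list of 82 other genes of the same pathways was read from the same fit, and 69 of them were on the array. Of the 42 tested, 0 were called at an adjusted p under 0.05 and 0 had an unadjusted p under 0.05 (limma). Means were higher for 13 and lower for 29 as deposited, 19 and 23 with quantile normalization, and 22 and 20 with median centring. Acvr1c, the gene of the type I receptor ALK7, read 113, 99.7 and 99.0 on C1q arrays, against 112, 132 and 128 on untreated arrays. C1q array 1 of Acvr1c lay above untreated array 1 and the other C1q arrays lay below all untreated arrays. Its fold change was 0.857 (95% interval 0.730 to 1.01), and its unadjusted p of 0.0574 was the smallest of the 42 (adjusted p = 0.9999). Pmepa1, a TGF-beta-induced feedback gene, read 543, 619 and 606 on C1q arrays, against 662, 632 and 630 on untreated arrays. The fold change of Pmepa1 was 0.919 (95% interval 0.834 to 1.01). The C1q arrays lay below the untreated arrays without overlap for 3 of the 42, Pmepa1, Nodal and Ltbp3, and above them for 0, beside 4.42% of tested probe sets with C1q below. Ltbp3 is named for that separation, after its values were seen. Nodal, a ligand gene of early embryos, had a fold change of 0.910 and Id2, the remaining Id family gene, 0.947. On the higher side Gdf6 had 1.12, Cdkn2b, a cell cycle inhibitor gene induced by TGF-beta, 1.06, the Smad ubiquitin ligase gene Smurf1 1.04 and the kinase adaptor gene Tab1 1.03.

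The cultures carried the markers of cortical neurons, with all 8 neuronal markers above the filter. Map2 averaged 5116 ± 207 in C1q-treated and 5271 ± 421 in untreated neurons (SD, n = 3 each), and Tubb3 averaged 7952 ± 245 in C1q-treated and 8078 ± 408 in untreated neurons. Markers of other cells were read beside the pathway genes, since glia and meningeal cells also make TGF-beta family ligands. Summed marker intensities ran from 3365 to 3431 on C1q arrays and from 3268 to 3534 on untreated arrays for astrocytes. Of the 8 astrocyte markers 7 lay above the filter, all but Gfap. The mural and meningeal sum, most of it Acta2, ran from 7295 to 7534 on C1q arrays and from 7476 to 7918 on untreated arrays. For microglia, with 1 of 7 markers above the filter, the sums were 442 to 484 on C1q and 432 to 451 on untreated arrays. Sums for excitatory neurons, the oligodendrocyte lineage and endothelium overlapped between the groups. Of the 7 radial glia markers 6 lay above the filter. Radial glia sums did not overlap, at 7526 to 7844 on C1q and 7890 to 8007 on untreated arrays. Neither did inhibitory neuron sums, at 13306 to 13548 on C1q and 13640 to 14338 on untreated arrays, nor blood sums, at 2412 to 2597 on C1q and 2115 to 2395 on untreated arrays. These sums were not rescaled, and array medians ran from 147 to 150 on C1q and from 150 to 155 on untreated arrays. Of single tested probe sets 5.72% were separate, and no such share was computed for sums. Among the radial glia and inhibitory neuron markers only Npy was separate by itself, with a fold change of 0.932. The other inhibitory neuron markers had 0.937 (Gad1), 0.977 (Gad2), 0.945 (Slc32a1), 0.985 (Dlx1), 0.972 (Sst) and 1.00 (Lhx6). Radial glia markers had 1.01 (Sox2), 0.954 (Pax6), 0.987 (Vim), 0.959 (Nes), 0.982 (Hes5), 0.926 (Fabp7) and 1.08 (Hes1, below the filter). Within the blood list the globin genes Hbb and Hba-a3 were each separate, with C1q above, at fold changes of 1.19 and 1.12. Their unadjusted limma p-values were 0.00334 and 0.0134, beside 2.49% of tested probe sets under 0.05 (adjusted p = 0.9999 for both). Alas2, Pf4 and Ppbp had 0.987, 0.988 and 1.01. The part of such cells in the values of the pathway genes was not tested. In such bulk RNA fewer cells of a type and less RNA per cell cannot be told apart.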

How the data were processed

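Rat neuron RNA was measured on 6 arrays, 3 of C1q-treated and 3 of untreated cells. The deposited table gives 1 linear intensity per probe set for 29215 probe sets; per the labels' protocols biotinylated cRNA was prepared by the Affymetrix protocol, and the sources used here do not give the summarisation, normalization or probe background. Array medians ran from 147 to 155. Gene names came from the platform annotation (15310 probe sets with 1 gene, 323 with several, 13582 with none), and 15279 of the first kind matched RefSeq GRCr8.

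Deposited intensities were analysed as log2(intensity + 16), without rescaling. The brightest 60% by mean, 17529 probe sets, entered lmFit and eBayes with an intensity trend (limma 3.58.1, R 4.3.3), C1q against untreated. Benjamini-Hochberg adjustment ran over those 17529. Intervals are 95% limma intervals. Signal over background is unknown, and 3 arrays per group limit the precision. The procedure was also run on simulated data with independent noise for each probe set. That simulation holds no deviation shared across the probe sets of an array, so it cannot show how such deviations act on the test.

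The genes, lists and tests were chosen with earlier results of these data known. All 38 listed genes are named where measured. From the 82 other pathway genes the text names up to 4 of smallest unadjusted p in each direction, since none passed. Marker lists are given by their sums, other than the neuron list, of which Map2 and Tubb3 are given. For excitatory neurons, the oligodendrocyte lineage and endothelium only the overlap of the sums is stated. Single markers are named for the radial glia, inhibitory neuron and blood lists, after their sums were seen not to overlap. The 16 alternatives covered scaling, filter, pseudocount, variance model, array weights, a replicate block and leaving out each array. Averaging a gene's probe sets was not run, since each gene had 1.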

Additional observations from a re-analysis of the deposited data

How the results depend on the processing

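No tested pathway gene, of the 36 described or of the 69 others on the array, was called under any of the 16 alternatives. Over all probe sets the number called was 0 as reported, 447 with array weights, 9 with the replicate number as a block, 1 without the filter, and 0 to 38 on leaving out each array in turn, all 38 of them without untreated array 2. It was 0 under either rescaling, with only the brightest 40%, with pseudocounts of 1 and 64, and under both other variance models. Weights of 0.362, 0.335 and 5.51 fell on untreated arrays 1 to 3, and with them the smallest adjusted p among the 26 tested genes of the described 36 was 0.0821, for Tgfbr1. Unadjusted limma p-values under 0.05 then numbered 5 of 26, against 0 as reported, beside 20.6% of tested probe sets, at log2 fold changes of 0.23 for Tgfb3 (0.10 as reported), -0.17 for Inha, -0.13 for Tgfbr1, 0.097 for Acvr1 and -0.095 for Acvr2a. Higher means numbered 15 of 36 as reported, 21 with quantile normalization, 23 with median centring, 13 with array weights and 12 to 21 on leaving out an array. The sign of the difference was the same under all alternatives for 15 of 36 genes, Smad3, Nog and Tgfbr1 among them. For Smad3 and Nog, whose groups did not overlap, only the rescalings could have changed it.

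The labels number the arrays 1 to 3 in each group, and deviations of same-numbered arrays correlated at 0.014, -0.45 and -0.13. Differently numbered arrays reached 0.45 (C1q array 3 with untreated array 2) and 0.35 (C1q array 2 with untreated array 1). The numbers were not taken to pair the arrays, but with 3 arrays per group these correlations cannot exclude a pairing. With the replicate block the unadjusted p of Smad3 and Nog was 0.302 and 0.303. For 10 genes below the filter, and for low intensities in general, the unknown background limits what a fold change can show.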
